A study of Mus musculus with 4 samples.

Results

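The solute carrier genes are described here as they were transcribed from the 2 alleles of F123-ESCs, a male hybrid mouse embryonic stem cell (ESC) line from a cross of S129/Jae and Cast mice. A gene was taken as a member if its symbol had the Slc form of a family number and a member number, if it was not in the Slc2, Slc16 or Slc22 family, and if the mean of the 4 S129 values and the mean of the 4 CAST values summed to at least 1 RPKM (reads per kilobase, scaled to the mapped reads of the library). Of 283 solute carrier genes of these families in a table of 24026 genes, 181 were members (64%). All 181 are protein-coding in GENCODE M21, 172 are autosomal and 9 are X-linked.

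The data are 4 RNAseq libraries of polyA RNA from untreated F123-ESCs of genotype S129/CAST, replicates 1 to 4. The cells were kept on inactivated feeder fibroblasts, moved onto gelatin without feeders for some passages, and harvested about 48 h after plating. There was no second condition, so the comparisons possible are those between genes and between the maternal S129 and paternal CAST alleles of the same library. Each allele value holds only reads that cover a SNP between the strains, so a level depends on how many SNPs a transcript carries as well as on how much of it there is. Nothing in the labels says that the libraries came from separate cultures, and the spread between them may be technical.

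Solute carriers are the proteins that move amino acids, sugars, nucleosides, metal ions, anions, vitamins, lipids and metabolites across membranes without hydrolysing ATP themselves. Most use the gradient of their own substrate or of sodium, protons or another ion, and sodium-coupled carriers depend on the sodium pump. The Slc25 family sits mostly in the inner mitochondrial membrane and exchanges metabolites between the matrix and the cytosol. ESCs are fast-dividing cells that depend strongly on the uptake of amino acids such as glutamine and threonine.

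The libraries held 34120416 to 56627972 allele-assigned reads, and 0.621% to 0.747% of the reads of an allele were on the members. Whole reads could be recovered from the RPKM of all 181 members, with 57 reads for the least covered, a median of 3073 and 65073 for the most covered over all 8 allele columns. All 8 ESC markers examined were present, with a summed level of 7698 to 9330 RPKM per library. Most of this sum came from Dppa5a at 7111 ± 907 RPKM (SD, n = 4), while Nanog was at 84.5 RPKM and Pou5f1 at 29.5 RPKM. Markers of feeder fibroblasts summed to 181 to 228 RPKM, of which Col1a2 gave 166 ± 17.5 (SD, n = 4), which is 11.3 RPKM per length of all its exons. The other markers ran from Postn at 15.4, Col3a1 at 11.4 and Col1a1 at 5.68 RPKM to Dcn at 0.659 and Lum at 0.0462 RPKM, with 8 of 9 at 0.5 RPKM or more. Markers of primitive endoderm summed to 46.7 to 53.7 RPKM, mostly Dab2 at 44.2 RPKM (3.87 RPKM per length of all exons), with Gata6 at 1.40 RPKM and Sox17 at 0.327 RPKM. The part of such cells in the levels below was not tested.

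The level of a gene is given as the mean of its S129 and CAST values, so the threshold of 1 RPKM for the sum equals a level of 0.5 RPKM, and for an X-linked gene of these male cells the S129 value is 2-fold the level. The members were chosen by these same RPKM values, and the levels are described without a test. The median level of the members was 5.46 RPKM, with quartiles of 1.9 and 13.67 RPKM, against 7.79 RPKM for all 13341 genes that pass the same threshold. In replicates 1 to 4 the median was 5.17, 5.57, 5.71 and 5.04 RPKM. Levels of 10 RPKM or more were found for 55 members, 1 to 10 RPKM for 103 and less than 1 RPKM for 23. The 10 highest members held 40.5% of the summed RPKM. Just inside the threshold were Slc25a4 at 0.544 RPKM, Slc7a8 at 0.528 RPKM and Slc23a4 at 0.527 RPKM, and just outside were Slc28a3 at 0.490 RPKM, Slc6a7 at 0.489 RPKM and Slc6a16 at 0.466 RPKM. Of the 102 genes under the threshold, 5 were listed at 0 in all 8 columns and 53 were above 0 in all 8.

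The highest member was Slc25a39, a mitochondrial carrier needed for glutathione import, with 178.8, 202.8, 203.4 and 208.1 RPKM in replicates 1 to 4. Its lowest library lay above the highest library of every other member. Slc3a2, the heavy chain that brings several amino acid transporters to the plasma membrane, followed with 114.7, 127.1, 125.4 and 125.5 RPKM. Slc25a1, which exports citrate from mitochondria for lipid synthesis and acetylation, had 108.4, 118.0, 117.7 and 125.7 RPKM. Next in order came the magnesium transporter Slc41a1 (109 ± 9.75 RPKM, SD, n = 4), the phosphate importer Slc20a1 (100.5 ± 9.75 RPKM) and the equilibrative nucleoside transporter Slc29a1 (97.3 ± 6.74 RPKM). Slc25a3, which brings phosphate into mitochondria for ATP synthesis, had 89.1 ± 6.59 RPKM. The last of the 10 were Slc38a4, a sodium-coupled importer of neutral amino acids (78.1 ± 9.35 RPKM), Slc25a20, the carnitine and acylcarnitine exchanger of fatty acid oxidation (76.0 ± 6.14 RPKM), and Slc25a13, an aspartate and glutamate exchanger of the malate-aspartate shuttle (75.6 ± 8.46 RPKM). From Slc3a2 down to Slc25a13, each gene overlapped with the next in order between libraries. Slc25a13 did not overlap with the eleventh member, the zinc importer Slc39a1 (53.5 ± 4.88 RPKM).

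**Figure D1:**
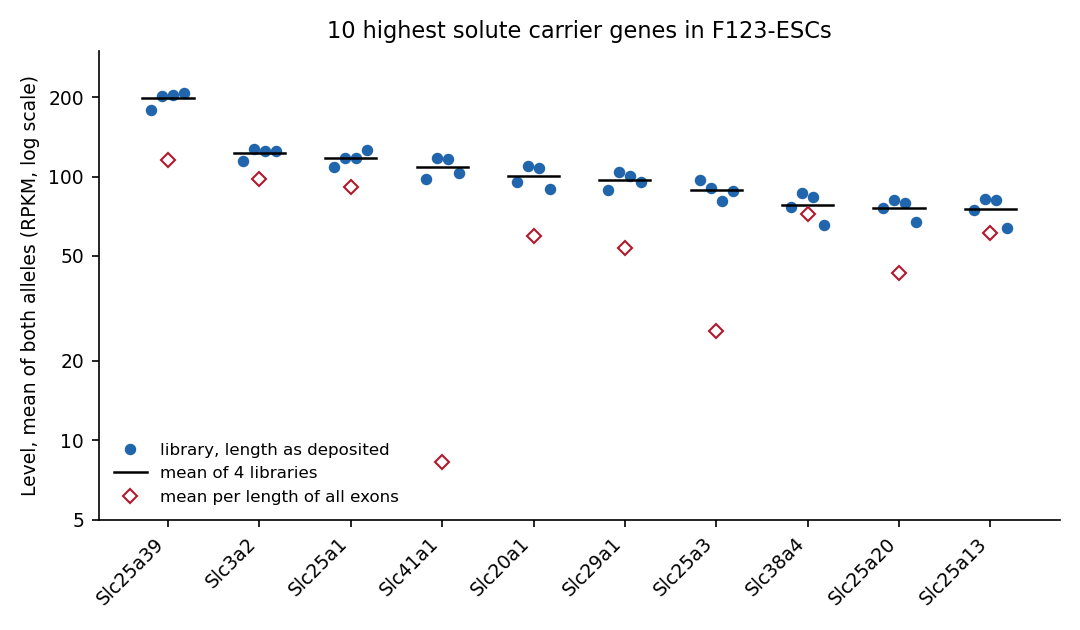
Levels of the 10 highest solute carrier genes in RPKM on a log scale, with 1 blue point for each of the 4 libraries, a black line at their mean and a red diamond at the mean recomputed per length of all exons of the gene. Slc25a39 stands above the rest at 178.8 to 208.1 RPKM, and the diamond of Slc41a1 falls to 8.24 RPKM.

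The order rests on the gene length behind each RPKM. For 152 of the 181 members the values came out as whole reads with the length of the transcript listed first in GENCODE M21, which can be a short one. The exons of a member together were a median of 1.53 times as long as the length used, and at least 2 times as long for 54 members. Slc41a1 is the extreme among the highest: its 109 RPKM came from 7649 reads over 8 columns, and per length of all its exons its level was 8.24 RPKM. Recomputed in this way, Slc25a39 (115.5 RPKM), Slc3a2 (98.2 RPKM) and Slc25a1 (91.1 RPKM) kept the first 3 places, and 8 of the 10 highest remained, with Slc39a1 (53.5 RPKM) and Slc39a7 (38.7 RPKM) in place of Slc41a1 and Slc25a3 (25.9 RPKM). The median of the members became 3.27 RPKM, and 20 members fell under 0.5 RPKM. This recalculation was added after the data were seen. It leaves the ratio between alleles of a gene as it was.

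The promoters of the 2 highest Slc25 genes are shown because GC boxes were the commonest of the motifs searched in the members, and that of Slc7a11 because it holds the amino acid response element on both strands. Each is the RefSeq window of 300 bases, from 250 before to 50 after the annotated start, in build GRCm38.p6. The genes all lie on the minus strand of their chromosome, and each window is read 5′ to 3′ on that strand. Capitals mark the motif, the GC box GGGCGG or its reverse complement in the first 2 and the element TGATGNAA or its reverse complement in the third. The windows are chr11:102407468-102407767 for Slc25a39, chr16:17928170-17928469 for Slc25a1 and chr3:50443564-50443863 for Slc7a11.
Slc25a39: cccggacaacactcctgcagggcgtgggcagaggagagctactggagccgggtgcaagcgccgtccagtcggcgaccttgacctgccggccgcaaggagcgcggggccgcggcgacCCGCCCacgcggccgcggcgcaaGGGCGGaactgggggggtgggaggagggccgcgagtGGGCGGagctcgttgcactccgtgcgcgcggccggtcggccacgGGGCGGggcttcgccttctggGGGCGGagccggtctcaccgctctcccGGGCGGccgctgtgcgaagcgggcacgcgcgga
Slc25a1: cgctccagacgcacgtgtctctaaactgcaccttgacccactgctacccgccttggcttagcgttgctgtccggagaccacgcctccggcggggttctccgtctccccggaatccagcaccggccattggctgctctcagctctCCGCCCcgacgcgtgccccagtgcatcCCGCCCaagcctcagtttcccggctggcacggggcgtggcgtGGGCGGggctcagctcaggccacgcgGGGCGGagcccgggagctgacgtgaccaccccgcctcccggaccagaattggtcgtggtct
Slc7a11: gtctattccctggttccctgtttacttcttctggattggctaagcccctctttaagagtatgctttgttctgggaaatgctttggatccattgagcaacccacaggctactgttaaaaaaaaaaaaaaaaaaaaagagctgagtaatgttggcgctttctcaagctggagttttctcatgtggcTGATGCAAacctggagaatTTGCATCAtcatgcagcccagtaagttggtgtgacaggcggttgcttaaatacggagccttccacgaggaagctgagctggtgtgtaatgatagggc

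Slc25a39 held 6 GC boxes in this window and Slc25a1 held 4. A promoter window that starts within 500 bp of the GENCODE start was found for 112 of the 181 members. A GC box, the motif bound by Sp family factors, was present in 75.9% of these, in 23 of 26 mitochondrial carriers (88.5%), in 47% of 66 solute carrier genes under the threshold, in 65.1% of all genes that pass the threshold and in 49.5% of all 14897 promoters. The median ratio of observed to expected CpG was 0.702 in members, 0.430 in the solute carrier genes under the threshold and 0.762 in all genes that pass. Members over 10 RPKM held a GC box in 77.8% of windows and those under 10 RPKM in 75%. The E-box CACGTG was present in 15.2% of members, 13.6% of the solute carrier genes under the threshold, 10.6% of genes that pass and 8.55% of all promoters. The amino acid response element TGATGNAA was present in 3 members, Slc7a11, Slc1a4 and Slc50a1 (2.68%, against 3.26% of all promoters). These matches are a description of the letters in the windows and were not tested.

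By transport class, the mitochondrial carriers had the highest median level, 9.06 RPKM over 38 members of 47 listed genes. Nucleoside transporters followed with 8.67 RPKM (5 of 7), metal ion transporters with 7.74 RPKM (27 of 32), amino acid transporters with 6.90 RPKM (28 of 42), phosphate, sulfate and carboxylate transporters with 6.17 RPKM (8 of 14) and nucleotide sugar and acetyl-CoA transporters with 6.16 RPKM (6 of 6). Vitamin and cofactor transporters had a median of 5.30 RPKM (9 of 12) and lipid, choline and bile acid transporters of 4.45 RPKM (11 of 18). Ion exchangers and cotransporters had 3.48 RPKM (26 of 47), and neurotransmitter and vesicular transporters 2.33 RPKM (9 of 32, the lowest share of members). The remaining families together had 6.24 RPKM (14 of 26). These medians use the lengths as deposited and were not recomputed per length of all exons, so the order of close classes is not settled. On that length Slc29a4 falls from 15.2 to 2.16 RPKM and Slc30a7 from 38.9 to 4.64 RPKM.

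**Figure D2:**
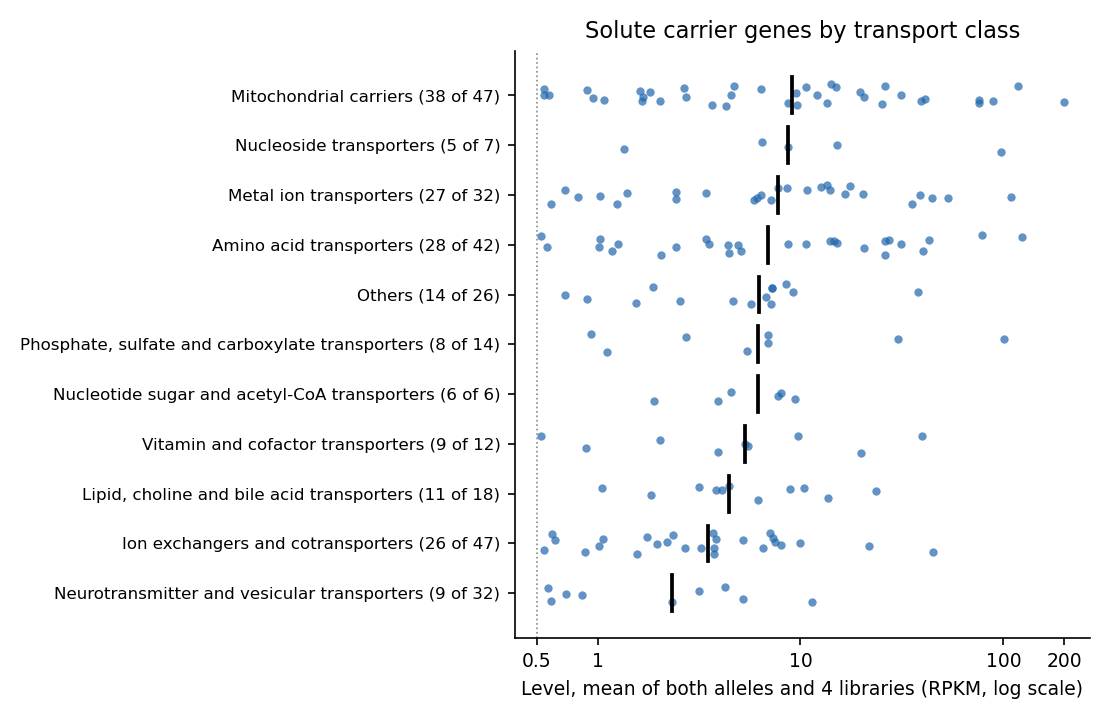
Level of each of the 181 members in RPKM on a log scale, the mean of both alleles and 4 libraries, by transport class; the black bar is the class median and the dotted line the threshold of 0.5 RPKM. Labels give the members out of the genes listed, from 28.1% for neurotransmitter and vesicular transporters to 100% for nucleotide sugar and acetyl-CoA transporters.

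The ADP/ATP carriers, which exchange nucleotides across the inner mitochondrial membrane and are among the most abundant proteins there, were low in these values. Slc25a4 was at 0.544 ± 0.100 RPKM, with 194 reads in all. Slc25a5, an X-linked gene, had 15 S129 reads and was at 0.0568 RPKM, under the threshold. Slc25a31, the ADP/ATP carrier best known from germ cells, was the highest of these at 5.27, 4.83, 4.70 and 3.42 RPKM in replicates 1 to 4. Reads over SNPs alone were counted, and the share of each transcript that carries SNPs was not tested.

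Among amino acid carriers, 17 genes of a list for uptake in ESCs were all members. After Slc3a2 and Slc38a4, the highest were Slc38a2, a sodium-coupled importer of small neutral amino acids (43.2 ± 3.28 RPKM), and Slc7a3, an X-linked importer of cationic amino acids (40.3 ± 3.34 RPKM, all but 9 of 21310 reads from S129). The light chains that pair with Slc3a2 differed widely in level. Slc7a5, which imports large neutral amino acids such as leucine, had 28.4, 33.2, 35.6 and 28.7 RPKM, and Slc7a7, which exports cationic amino acids, had 25.3, 29.3, 28.2 and 26.1 RPKM. Slc7a6, with a similar substrate range to Slc7a7, was at 4.90 ± 0.627 RPKM, the cystine importer Slc7a11 at 1.02 ± 0.158 RPKM and Slc7a8, another importer of neutral amino acids, at 0.528 ± 0.0791 RPKM. The glutamine importer Slc1a5 had 24.0, 26.2, 28.0 and 26.2 RPKM, and its relative Slc1a4 10.6 ± 0.849 RPKM. Slc38a9, the lysosomal arginine sensor of the mTORC1 pathway, was at 13.9 ± 1.65 RPKM, which became 0.981 RPKM per length of all its exons.

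Metal ion carriers were led by Slc41a1, by Slc39a1 and by Slc39a7, which releases zinc from the endoplasmic reticulum (44.5 ± 4.42 RPKM). Among ion exchangers, the potassium chloride cotransporter Slc12a7 had 45.2 ± 5.82 RPKM and the chloride bicarbonate exchanger Slc4a2 21.8 ± 2.53 RPKM, and no other member of the class reached 10 RPKM. Both depended on length: per length of all exons they were at 6.47 and 1.06 RPKM. The thiamine importer Slc19a2 (39.95 ± 2.87 RPKM), the folate importer Slc19a1 (20.0 ± 0.485 RPKM) and the vitamin C importer Slc23a2 (9.68 ± 0.669 RPKM) led the vitamin carriers, and all exons together gave 37.2, 3.55 and 7.75 RPKM. Slc20a2, the second phosphate importer of its family, was at 30.2 ± 2.08 RPKM. In the lipid class, Slc27a3 (23.6 ± 1.95 RPKM), of the fatty acid transport protein family, Slc10a7 (13.7 ± 0.605 RPKM) and Slc44a3 (10.4 ± 1.48 RPKM), of the choline transporter-like family, were highest. Per length of all exons Slc44a3 was at 1.27 RPKM, below Slc27a4 (5.68 RPKM) and Slc44a2 (3.54 RPKM). The sugar transporter Slc50a1 had 37.9 ± 4.06 RPKM. The CMP-sialic acid, UDP-N-acetylglucosamine and related carriers of the Golgi, Slc35a1, Slc35a3 and Slc35a4, lay at 7.79 to 9.37 RPKM.

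Carriers known for one specialised tissue were mostly under the threshold: 7 of 24 such genes were members, and the median of the 24 was 0.201 RPKM. The highest was Slc5a1, the sodium glucose cotransporter of the intestine, with 9.01, 10.1, 9.37 and 8.39 RPKM. The melanosome exchanger Slc24a5 was at 1.96 ± 0.184 RPKM, the liver bile acid importer Slc10a1 at 1.83 ± 0.134 RPKM and the thyroid iodide importer Slc5a5 at 1.55 ± 0.222 RPKM. Slc5a2, known from the kidney, was at 0.688 RPKM and Slc6a2, known from noradrenaline neurons, at 0.571 RPKM. The taurine importer Slc6a6 (11.5 ± 0.865 RPKM) was the only neurotransmitter or vesicular family member over 10 RPKM. None of the 24 was at 0 in all columns; the lowest was the vesicular GABA transporter Slc32a1 at 0.00335 RPKM.

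Annotated spans of 30 members overlapped another gene that passes the threshold, 5 on the same strand and 25 on the opposite strand. Whether reads were counted by strand is not given in the sources used here, so reads of such pairs may have been shared. This touches low members inside or beside high genes: Slc23a1 (0.875 RPKM) overlaps Paip2 (186 RPKM), Slc25a18 (0.546 RPKM) overlaps Atp6v1e1 (76.6 RPKM), Slc18a1 (0.695 RPKM) overlaps Atp6v1b2 (63.8 RPKM) and Slc39a2 (0.692 RPKM) overlaps Mettl17 (25.4 RPKM). Slc24a5 (1.96 RPKM), named above, overlaps Myef2 (19.4 RPKM) on the opposite strand. The inositol importer Slc5a3 (4.64 RPKM) overlaps Mrps6 (75.1 RPKM) on the same strand.

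Between libraries, levels had a median coefficient of variation of 9.47% over the members. The 5 most variable on the log2(RPKM + 0.1) scale were Slc38a5, Slc25a47, Slc43a3, Slc1a1 and Slc9a3. Slc38a5, an X-linked glutamine transporter, had 0.917, 1.95, 1.75 and 0.399 RPKM from 91 reads in all. Slc25a47, a mitochondrial carrier known from liver, had 1.486, 2.596, 2.733 and 1.346 RPKM from 238 reads, and Slc9a3, a sodium proton exchanger, 0.528, 0.417, 0.468 and 0.764 RPKM from 57 reads. Slc43a3, which carries purine nucleobases, was lowest in replicate 4 at 0.794 RPKM, against 1.199 to 1.372 RPKM in the other libraries. The glutamate importer Slc1a1 ran from 2.47 to 4.27 RPKM.

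The alleles were compared within each library on the log2(RPKM + 0.1) scale with limma over all genes that pass, with Benjamini-Hochberg adjustment and a threshold of 0.05 for the adjusted p. Differences are S129 minus CAST, and the scale understates the difference of low genes. Of the 172 autosomal members, 105 were called (61%), against 61.4% of all 12869 autosomal genes tested, a share close to the background. Higher levels on S129 were called for 38 members (22.1%, against 28.9% of all genes) and higher levels on CAST for 67 (39%, against 32.5%). All 105 called members had the same direction in 4 of 4 libraries, as did 7875 of the 7901 called autosomal genes. The median difference of the members was -0.08, that of all autosomal genes -0.02. A difference of 2-fold or more was called for 13 members, 6 higher on S129 and 7 on CAST (7.56%, against 11.9% of all genes, of which 6.29% toward S129 and 5.63% toward CAST).

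**Figure D3:**
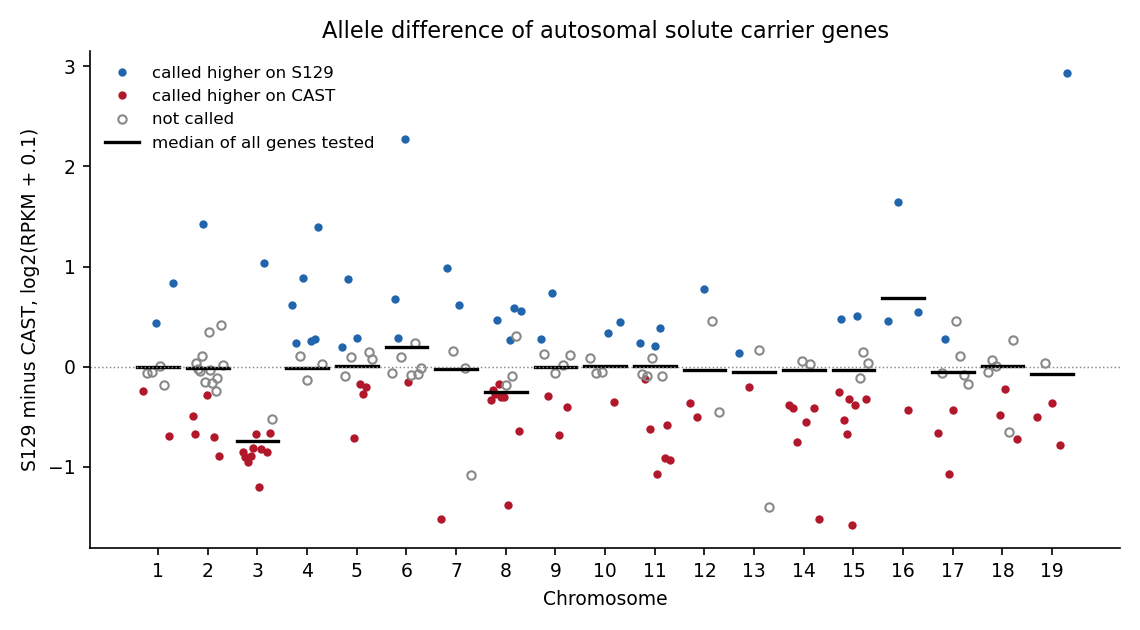
Difference between alleles of each autosomal member, S129 minus CAST on the log2(RPKM + 0.1) scale, by chromosome; blue points were called higher on S129, red points higher on CAST and open grey points were not called, and black bars are the median of all genes tested on the chromosome. The bar stands at -0.74 on chromosome 3 and at 0.69 on chromosome 16, and 11 of the 12 members on chromosome 3 lie below 0, Slc25a31 being the exception at 1.03.

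The largest called difference toward S129 was that of Slc1a1, a sodium-coupled glutamate importer on chromosome 19 (28835049 to 28913960, mm10). Its S129 values were 7.28, 6.05, 6.54 and 4.41 RPKM and its CAST values 1.25, 0.425, 0.813 and 0.522 RPKM. The alleles did not overlap, and the log2 difference was 2.93 ± 0.191 (SE, n = 4, limma adjusted p = 0.000364), from 345 S129 and 42 CAST reads. The sodium bicarbonate cotransporter Slc4a5 on chromosome 6 (83219828 to 83304945) had 8.58, 8.53, 9.10 and 8.48 RPKM on S129 and 1.43, 2.15, 1.99 and 1.40 RPKM on CAST. Its S129 allele was thus 4.83-fold higher (log2 difference 2.27 ± 0.120, adjusted p = 0.000196). Slc12a8, of the cation chloride cotransporter family, had 12.1 RPKM on S129 and 3.82 RPKM on CAST (1.64 ± 0.0749).

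Further members toward S129 were Slc27a2, which activates very long chain fatty acids, with 6.55 RPKM on S129 against 2.36 RPKM on CAST (1.43 ± 0.0572), and Slc25a51, which imports NAD+ into mitochondria, with 2.44 against 0.868 RPKM (1.40 ± 0.0556). Slc25a31 (1.03 ± 0.0989), the concentrative nucleoside importer Slc28a1 (0.98 ± 0.0542) and the vesicular zinc transporter Slc30a2 (0.88 ± 0.0613) completed the 8 largest called. In all 8 genes the lowest S129 value lay above the highest CAST value, which largely follows from picking the largest called differences. Per length of all its exons, Slc1a1 was at 0.237 RPKM, since the length behind its RPKM was short, and Slc4a5 at 3.26 RPKM.

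Toward CAST, the largest called difference was that of Slc1a3. Slc1a3, a glutamate importer known from astrocytes, had 3.86, 4.33, 4.75 and 4.32 RPKM on S129 and 13.2, 13.1, 14.4 and 11.8 RPKM on CAST. Its CAST allele was 2.995-fold higher (log2 difference -1.58 ± 0.0608, adjusted p = 7.77e-05). The glutamine importer Slc1a5 on chromosome 7 (16781340 to 16798274) had 12.8, 13.5, 13.4 and 13.9 RPKM on S129 and 35.2, 38.8, 42.6 and 38.6 RPKM on CAST, a 2.88-fold difference (-1.52 ± 0.0484, adjusted p = 4.44e-05, 3557 and 9917 reads). Slc7a8 differed by -1.52 ± 0.210 at 0.528 RPKM, with 0.227 RPKM on S129 and 0.8286 RPKM on CAST. Only its CAST allele was over 0.5 RPKM, so its difference is a description. Where 0.5 RPKM was required of each allele, 38 members were called toward S129 and 64 toward CAST, 12 of them at 2-fold or more. Without this requirement the calls were 38 and 67. The share of all genes called under it is not given here, so these counts describe the filter alone. Next in size among the called came the cationic amino acid importer Slc7a2, which differed by -1.38 ± 0.0765 at 2.06 RPKM.

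Slc44a3 (-1.2013 ± 0.0611), the sugar phosphate carrier Slc37a1 (-1.07 ± 0.0550), the cation and proton antiporter Slc47a2 (-1.07 ± 0.0797) and Slc50a1 (-0.95 ± 0.0591) completed the 8 largest toward CAST among the called members. Slc9a3 (-1.40, adjusted p = 0.111) and Slc5a2 (-1.08, adjusted p = 0.143) differed by more than some of these and were not called. With the nearest 50 genes taken out, Slc50a1 was not called (-0.09, adjusted p = 0.243). In each of the 8, the highest S129 value lay below the lowest CAST value, which again largely follows from how they were picked. The S129 share of both alleles in these 8 genes ran from 21.9% ± 7.18 (SD, n = 4) in Slc7a8 to 34.1% ± 1.97 in Slc50a1, and in the 8 genes toward S129 from 65.0% ± 2.10 in Slc30a2 to 89.3% ± 3.32 in Slc1a1.

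**Figure D4:**
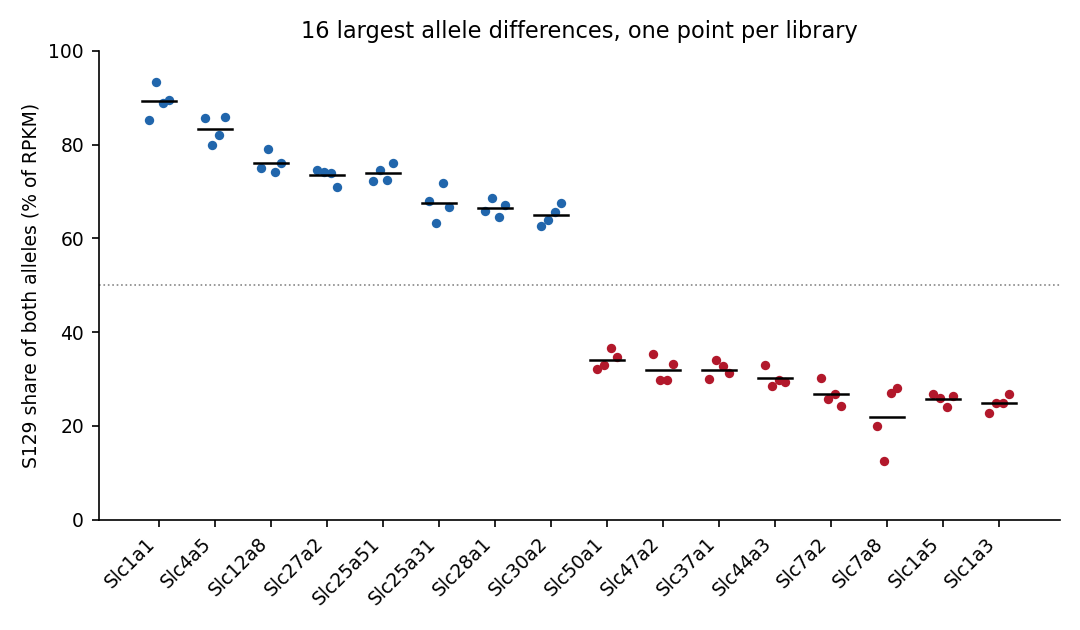
S129 share of the RPKM of both alleles in percent for the 8 members with the largest called difference toward S129 (blue) and the 8 toward CAST (red), with 1 point for each of the 4 libraries, a black line at their mean and a dotted line at 50%. No point crosses the dotted line, since the genes were picked with the same direction in 4 of 4 libraries. The most scattered gene is Slc7a8, at 12.4% to 28.0%.

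Of the 10 highest members, 8 were called, beside 61.4% of all autosomal genes. CAST was higher for Slc29a1 (log2 difference -0.66), Slc3a2 (-0.50), Slc20a1 (-0.49), Slc38a4 (-0.26) and Slc41a1 (-0.24). S129 was higher for Slc25a1 (0.45), Slc25a20 (0.28) and Slc25a39 (0.24). With the median of the 50 nearest genes taken out, Slc25a1 was called toward CAST (-0.34, adjusted p = 0.00158) and Slc38a4 was not called (-0.09, adjusted p = 0.115). Slc3a2 had 96.4, 105, 103 and 104 RPKM on S129 and 133, 149, 148 and 147 RPKM on CAST. Slc25a3 (0.09, adjusted p = 0.0526) and Slc25a13 (-0.06, adjusted p = 0.166) did not pass. The smallest called difference among these 10, that of Slc25a39, was 1.18-fold with an S129 share of 54.1% ± 0.592. Smaller differences were called in other members, such as Slc38a10 at 1.09-fold (limma adjusted p = 0.0294).

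The amino acid uptake list had 16 autosomal members, of which 9 were called higher on CAST, 1 on S129 and 6 not. The list was drawn up with results of these data known, and beside it stand 32.5% of all genes called higher on CAST. Called toward CAST were Slc1a5, Slc7a8, Slc43a1 (-0.89), Slc38a1 (-0.68), Slc3a2, Slc7a7 (-0.38), Slc7a5 (-0.34), Slc7a6 (-0.30) and Slc38a10 (-0.13). Slc7a8 is counted among the 9, although only its CAST allele was over 0.5 RPKM. The one toward S129 was Slc38a2 (0.47). Not called were Slc7a1 (0.10, adjusted p = 0.0503), Slc38a9 (0.17), Slc1a4 (0.08), Slc43a2 (-0.10), Slc6a9 (0.03) and Slc7a11 (-0.52, adjusted p = 0.0678, from 465 reads). With the median difference of the 50 nearest genes taken out, 6 of the list were called toward CAST and 1 toward S129. Of all autosomal genes, 27.8% were then called toward CAST and 27.7% toward S129. Slc7a5 (-0.08, adjusted p = 0.114), Slc7a6 (-0.05, adjusted p = 0.42) and Slc38a10 (-0.12, adjusted p = 0.0713) were no longer called.

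**Figure D5:**
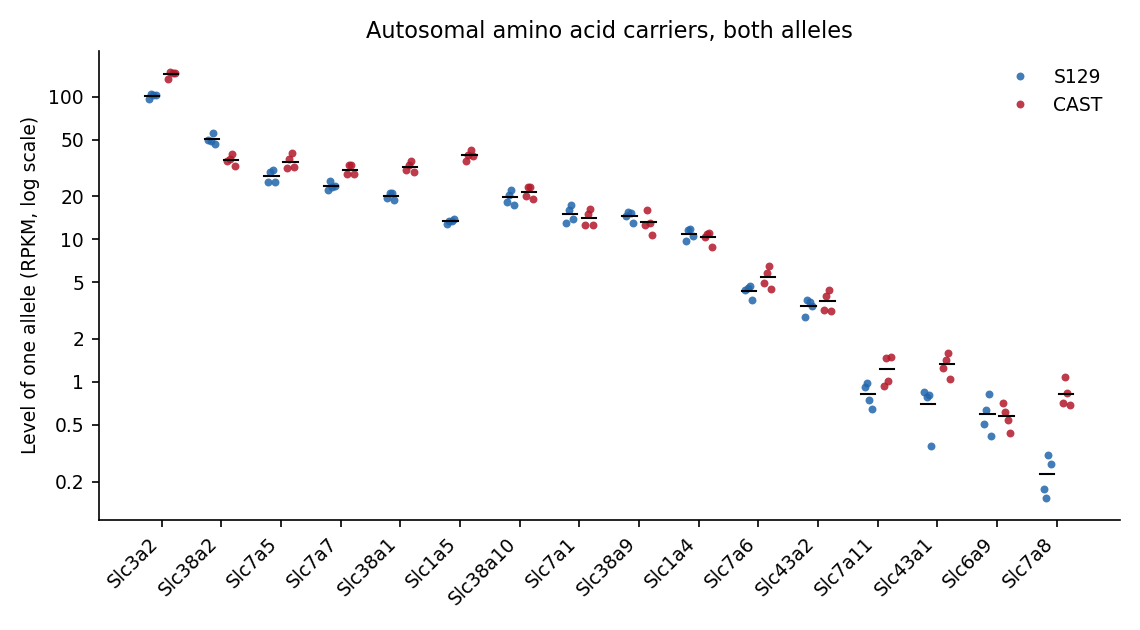
S129 (blue) and CAST (red) values in RPKM on a log scale of the 16 autosomal genes of the amino acid uptake list, with 1 point for each of the 4 libraries and a black line at the mean of an allele. The alleles are far apart in Slc1a5, at 12.8 to 13.9 RPKM and 35.2 to 42.6 RPKM, and their order is the reverse in Slc38a2.

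The counts by class stand beside 32.5% of all autosomal genes called toward CAST and 28.9% toward S129. Of the 172 autosomal members, 165 had at least 0.5 RPKM on each allele, and the counts include the rest. Amino acid transporters had 15 of 26 autosomal members called toward CAST and 4 toward S129, and metal ion transporters had 14 of 27 toward CAST and 5 toward S129. With the nearest 50 genes taken out these became 11 and 4 for amino acid transporters and 13 and 5 for metal ion transporters. In that setting 27.8% of all autosomal genes were called toward CAST and 27.7% toward S129. Mitochondrial carriers were split, with 11 of 36 called toward S129 and 10 toward CAST, as were ion exchangers, with 6 and 6 of 24. Phosphate, sulfate and carboxylate transporters had 5 of 8 toward CAST and 0 toward S129 by limma, and also 0 toward S129 at an unadjusted p under 0.05. Vitamin carriers had 0 of 9 toward CAST and 2 toward S129, Slc52a2, a riboflavin importer (0.51), and Slc46a1, a folate importer (0.39), and 2 toward CAST at an unadjusted p under 0.05. Of the specialised tissue list, 0 of 7 were called toward S129 (1 at an unadjusted p under 0.05, Slc10a1 at 0.46), 3 toward CAST and 4 not. Slc6a2, 1 of the 3, had 0.428 RPKM on S129 and 0.714 RPKM on CAST. Only its CAST allele was over 0.5 RPKM, so its difference is a description. Of the nucleoside transporters, Slc28a1, Slc29a4 (0.87) and Slc29a3 (0.45) were called toward S129 and Slc29a1 and Slc29a2 (-0.36) toward CAST.

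Chromosomes 3 and 16 differed between alleles as a whole, and the members on them are given beside that shift. On chromosome 3 the median of 622 genes was -0.74 and 74.9% of them were called toward CAST and 9.97% toward S129. Of 12 members there, 10 were called toward CAST: Slc44a3, Slc50a1, Slc30a7 (-0.90), Slc27a3 (-0.89), Slc33a1 (-0.86), Slc39a1 (-0.85), Slc35a3 (-0.83), Slc25a44 (-0.81), Slc25a24 (-0.67) and Slc39a8 (-0.66). Slc7a11 was not called, and Slc25a31 went the other way. With the median of the 50 nearest genes taken out, 3 of the 12 were called, Slc25a31 toward S129 (1.14) and Slc44a3 (-0.51) and Slc30a7 (-0.22) toward CAST. The signs of Slc25a24 (0.03) and Slc39a8 (0.07) turned, with neither called.

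On chromosome 16 the median of 413 genes was 0.69 and 72.2% were called toward S129 and 11.4% toward CAST. Of its 4 members, Slc12a8, Slc35a5 (0.54) and Slc25a1 were called toward S129, and Slc5a3 (-0.44) toward CAST. With the nearest 50 genes taken out, Slc12a8 stayed higher on S129 (0.87), while Slc25a1 (-0.34, adjusted p = 0.00158) and Slc35a5 (-0.28, adjusted p = 0.0176) were called toward CAST. Over all autosomes this setting left 89 members called (33 toward S129 and 56 toward CAST), beside 55.5% of all genes (27.7% toward S129 and 27.8% toward CAST). At 2-fold or more, 6 members were then called toward S129 and 5 toward CAST (6.4%, beside 10.3% of all genes, of which 5.77% toward S129 and 4.51% toward CAST). On chromosomes 6 and 8 the medians of all genes tested were 0.19 and -0.25. Outside chromosomes 3, 6, 8 and 16, 74 of 131 members were called (56.5%), 27 toward S129 (20.6%) and 47 toward CAST (35.9%). Of all genes there, members included, 58.2% were called, 27.9% toward S129 and 30.3% toward CAST.

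Among 22 pairs of neighbouring members within 500 kb, both genes were called in 9, with the same direction in 5 and opposite directions in 4. Over all 92412 pairs of autosomal genes within that distance, next to each other or not, both were called in 36.7%, and 60.6% of those had the same direction. The member pairs join each member only with the next one, so they are not defined alike. Slc38a1, Slc38a2 and Slc38a4, related sodium-coupled amino acid carriers, lie in this order on chromosome 15 between 96571418 and 97055956 (mm10), each on the minus strand. The S129 share of Slc38a1 was 38.8%, 38.9%, 37.4% and 38.8% in replicates 1 to 4, that of Slc38a2 58.3%, 57.3%, 58.3% and 58.9%, and that of Slc38a4 46.6%, 45.8%, 44.8% and 45.1%. The ranges of the 3 genes did not overlap, and the log2 differences were -0.68, 0.47 and -0.26. Other opposite neighbours were Slc25a20 (0.28) with the anion exchanger Slc26a6 (-0.30), and Slc52a2 (0.51) with the zinc importer Slc39a4 (-0.33). The antiporters Slc47a2 (-1.07) and Slc47a1 (-0.94), with 541 bp between them, both went toward CAST.

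Slc38a4 is an imprinted gene, expressed from the paternal allele in some tissues. In these libraries it was read from both alleles. The maternal S129 allele had 71.3, 79.3, 75.2 and 59.2 RPKM and the paternal CAST allele 81.7, 93.8, 92.6 and 72.1 RPKM, a share of 45.6% ± 0.807 for S129 (log2 difference -0.26 ± 0.0343, adjusted p = 0.00348). With the nearest 50 genes taken out it was not called (-0.09, adjusted p = 0.115). Strain and parent of origin cannot be told apart in a line from one direction of the cross.

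The 9 X-linked members were read almost entirely from S129, as the single X of these male cells is maternal. CAST reads were 1 of 9460, 3 of 8819, 7 of 8572 and 1 of 5135 in replicates 1 to 4, or 0.0106% to 0.0817%. Slc7a3 had an S129 value of 80.5 ± 6.67 RPKM, and Slc25a14, a mitochondrial uncoupling protein relative, 17.3 RPKM. The creatine importer Slc6a8 had 9.77, 10.6, 11.4 and 10.1 RPKM on S129, the UDP-galactose carrier Slc35a2 7.83 RPKM and the Golgi sodium proton exchanger Slc9a7 7.44 RPKM. Slc25a53, Slc38a5 and Slc10a3 were at 3.36, 2.51 and 2.11 RPKM on S129.

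Genes that work with the carriers were examined by the lists. Of the sodium pump subunits, Atp1b3 had 62.3 RPKM and Atp1b1 17.04 RPKM, with no called difference between alleles. Atp1b2 (-1.53) was called toward CAST, at 1.07 RPKM. Of the genes of mitochondrial channels, the pyruvate carrier and the calcium uniporter, Vdac1, Mcu and Micu2 were called toward CAST and Mpc2 toward S129, and Vdac2 was highest at 394 RPKM, ahead of Vdac1 at 228 RPKM. Per length of all exons that order turned, with Vdac1 at 176 RPKM and Vdac2 at 72.1 RPKM. The amino acid response and lysosomal sensing list was led by Atf4, the transcription factor of this response, at 203 RPKM and Asns at 97.3 RPKM, and 4 of its 11 genes were called toward CAST and 1 toward S129, beside 32.5% and 28.9% of all genes. Of 4 genes of mitochondrial carrier import, Timm22 (118 RPKM) and Timm9 (101 RPKM) were called toward CAST, Timm29 (15.1 RPKM) toward S129 and Timm10 (2.09 RPKM) was not called. Per length of all exons Timm22, Timm9, Timm29 and Timm10 were at 27.6, 18.8, 15.1 and 1.77 RPKM.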

How the data were processed

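RNA of untreated F123-ESCs was sequenced in 4 libraries as paired reads of 150 bases. The authors removed rRNA reads with SortMeRNA 2.1, trimmed the rest with Trimmomatic 0.40, aligned them with STAR 2.6 to mm10 masked at SNPs and split them by allele with SNPsplit. The values used are the deposited RPKM of each allele and library; the counter, its use of strand and the annotation are not given in the sources used here. The deposited columns of mean RPKM and of log10 of the mean RPKM plus 1 were not used.

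Whole reads were recovered from the RPKM with GENCODE M21 lengths (within 0.02 reads), for 20134 of 20243 genes above 0 (99.5%) and for all 181 members. For 11 members no annotated length gave whole reads, and the length that gave the fewest possible reads was taken. Totals per allele and library were 16716721 to 28772351 reads. Counts of reads are not independent molecules, and p-values measure only the spread between these libraries.

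Alleles were compared with limma 3.58.1 (R 4.3.3) on differences of log2(RPKM + 0.1) within each library over 13341 genes with a summed allele mean of at least 1 RPKM, with Benjamini-Hochberg adjustment over all of them. Both columns of a library come from the same cells, so they are paired; deviations of same-library columns correlated at 0.12 to 0.223 over 12219 genes, those of other libraries at -0.211 to 0.169. An exact sign-flip test of 4 libraries could not go below p = 0.125. Other steps used Python 3.11.15, pandas 2.3.3, numpy 2.4.6 and scipy 1.17.1. The main paired fit was tested on simulated differences, and the recovery of reads on simulated reads. The alternative settings were not tested on simulated data.

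The members and the gene lists were chosen with earlier results of these data known. Genes were named by rule: the 10 highest, the 3 highest of each class, the 8 largest called differences toward each allele, the X-linked members, those on chromosomes 3 and 16, the 5 most variable, the 3 on each side of the threshold, and members of the lists. Neighbouring, overlapping and partner genes were named after their values were seen where they are outside this rule. Alternatives were other pseudocounts, filters, centring, unpaired alleles, a variance trend, whole reads and leaving out each library. Promoter windows are from RefSeq. Protein sequences were not analysed here, and values of some members and list genes are not reported here.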

Additional observations from a re-analysis of the deposited data

Results flagged for a closer look

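Among the values of the named members, 161 quantities of 4 libraries were examined for a library far from the others (by the gap to the nearest library over the whole range, at Dixon's critical value for 4 samples), and 4 passed, where chance alone gives about 1 in 20 (8.05). The level of Slc3a2 was 114.7 RPKM in replicate 1, against 125.4 to 127.1 RPKM in the other libraries. The S129 share of Slc38a1 was 37.37% in replicate 3, against 38.77% to 38.9%. Slc5a5 had an S129 share of 46.73% in replicate 3, against 48.68% to 48.95%. Slc10a1 was at 2.029 RPKM in replicate 3, against 1.737 to 1.779 RPKM.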

How the results depend on the processing

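Over the alternatives, calls toward S129 ran with one library left out from 31 to 35 and those toward CAST from 58 to 69, with 13 to 15 members at 2-fold or more, a median difference of -0.0968 to -0.0797, a median level of 5.327 to 5.529 RPKM and 180 to 182 members. Without the replicate block, which pairs the alleles of a library, 31 members were called toward S129 and 53 toward CAST, 80 of these 84 being among the 105. With no filter the calls were 32 and 63, and with whole reads 42 and 63. A pseudocount of 1 left 7 members at 2-fold or more. The median difference was -0.0648 with that pseudocount, -0.0582 with the autosomal median of each library taken out, -0.0654 after centring on each chromosome's own median, -0.0523 with that of the nearest 50 genes taken out (added after the data were seen) and -0.0347 with whole reads. The median level was 6.065 RPKM on S129 alone and 3.266 RPKM per length of all exons (added after the data were seen). The sign of the difference turned for Slc23a4, near 0 and not called, with a pseudocount of 1 (0.0040), with the autosomal median out (0.0124), with whole reads (0.0364) and on leaving out one library (-0.2649 to 0.2447, above 0 without replicate 2, 0.0673, and 4). Slc6a9, also not called, ran from -0.1443 to 0.1724 and turned without replicate 3. After that centring it turned for Slc25a1 (-0.2257), Slc35a5 (-0.1333), Slc25a24 (0.0463), Slc39a8 (0.0564), Slc7a11 (0.2016), Slc5a5 (0.1398), Slc10a7 (0.0656) and Slc20a2 (0.0047), and with the nearest 50 out for Slc25a1 (-0.3419), Slc35a5 (-0.2836), Slc25a24 (0.0255), Slc39a8 (0.0686), Slc7a11 (0.0994) and Slc5a5 (0.1193). Both of these settings subtract the shift of the surrounding genes. The cause of the other changes was not tested. The least covered member, Slc9a3, had 57 reads in all.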
